A study of Mus musculus with 70 samples.

Results

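This account concerns 8 of the 70 libraries of a study of adult and postnatal mouse microglia, the resident macrophages of the brain: 4 libraries titled BLZ_Jung_Oil and 4 titled Adult_Jung_Oil. They were chosen by title and joined gene by gene across the count tables that hold them. All 8 came from adult mice of 6 to 15 weeks that received oil, the vehicle for tamoxifen. All carry 1 copy of Cx3cr1CreERT2(Jung), a knock-in that puts a tamoxifen-inducible Cre recombinase in the microglial gene Cx3cr1, so that no library here is Cx3cr1 wild type. The BLZ-titled mice also carry 1 copy of the Rosa26YFP reporter, and the adult-titled mice have no such label. Titles and treatment labels conflict. The BLZ-titled libraries are labelled Oil, and the adult-titled libraries are labelled BLZ945+Oil. BLZ945, given by gavage, inhibits the receptor CSF1R. A BLZ945 dose of 100 mg/kg is recorded for all 8 libraries, those labelled Oil included.

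The corresponding groups in the second line, Cx3cr1CreERT2(Litt), have titles and labels that match: 3 libraries titled BLZ_Littman_Oil are labelled BLZ945+Oil, and 4 titled Adult_Littman_Oil are labelled Oil. The library names put the BLZ-titled libraries of both lines in a set named N126 and the adult-titled libraries of both lines in a set named N160. In the Jung line, library set, Rosa26YFP, title and treatment label therefore change together and cannot be told apart. A further 8 Jung libraries from tamoxifen-treated mice (4 titled BLZ_Jung_Tam and 4 titled Adult_Jung_TAM) have the same conflict. Replicates are not described as separate animals in the labels, so p-values measure the spread between libraries, which may be technical.

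CSF1R is the receptor tyrosine kinase for the cytokines CSF1 and IL-34, and adult microglia depend on its signal to survive. A CSF1R inhibitor such as BLZ945 depletes microglia, and the cells that remain or return can carry lower homeostatic genes and higher genes of activation, phagocytosis and antigen presentation. Homeostatic genes are those of resting microglia, such as P2ry12, Tmem119 and Cx3cr1. Genes induced by type I interferon, such as Ifitm3 and Bst2, are a separate programme of antiviral defence.

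Each library was made from 500 cells sorted as CD11b+ CD45+ Ly6G- CD206- with CEL-Seq2, which counts the 3' ends of mRNAs with molecular identifiers. The BLZ-titled Jung oil libraries held 189486 to 224692 counts, and the adult-titled ones 274120 to 303775. Levels are given as CPM, each library's counts per 1000000 of its TMM-scaled total over the 6496 genes tested. All 9 microglial markers were detected, summing to between 17819 and 23510 CPM in the BLZ-titled libraries and between 17736 and 24158 CPM in the adult-titled ones. Of 8 markers of border macrophages, the 4 found in all tables summed to at most 4.87 CPM in a BLZ-titled library and 16.5 CPM in an adult-titled library. The 3 monocyte markers found summed to at most 13.3 CPM in the BLZ-titled libraries and 19.5 CPM in the adult-titled libraries, and no neutrophil marker was in all tables. The 4 neuronal markers found had 0 counts in the BLZ-titled group, and summed to between 3.53 and 15.6 CPM in the adult-titled libraries. The 5 astrocyte markers found, mostly counts of Slc1a3, summed to between 211 and 296 CPM in the BLZ-titled libraries and between 340.1 and 496 CPM in the adult-titled ones. Slc1a3 was called lower, with a log2 fold change of -0.70 (edgeR adjusted p = 0.0146). The part of these markers in the results was not tested, and fewer cells of a type cannot be told apart from less RNA per cell. Protein-coding genes took 93.1 to 94.4% of counts in the BLZ-titled libraries and 81.7 to 88.7% in the adult-titled ones.

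Between the 8 Jung oil libraries, 283 genes were higher and 233 lower in the BLZ-titled group, of 6496 tested (edgeR quasi-likelihood test, adjusted p below 0.05). These 516 genes are 7.94% of those tested, 4.36% higher and 3.59% lower. Among the higher genes were Tyrobp, Trem2, Ctsz, Csf1r and the MHC class I genes H2-D1 and H2-K1. Among the lower genes was Rhob. Interferon-induced genes, which were higher by a median of 4.08 log2 units in the Littman line, differed by a median of 0.51 in the Jung line. Of the 28 tested, 16 passed the filter on low counts only through the BLZ-titled Littman libraries, so these medians are in part set by the filter. The count of 516 called genes fell to 298 without BLZ-titled replicate 3, 319 without BLZ-titled replicate 1 and 314 without adult-titled replicate 1. It fell to 256 in a fit of the 8 libraries alone. The sexes read from Xist and Y-linked counts were 1 female and 3 male in the BLZ-titled group and 2 and 2 in the adult-titled group, and 484 genes were called with sex as a covariate.

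The same contrast in the tamoxifen libraries, which share no library with the oil groups, called 677 genes (10.4%), 370 higher (5.7%) and 307 lower (4.73%). Of the 516 genes called in oil, 311 were called the same way in tamoxifen. Without BLZ-titled tamoxifen replicate 3 the contrast called 433 genes. In the Littman oil libraries the contrast of the same 2 library sets called 1181 genes (18.2%), of which 695 (10.7%) were higher and 486 (7.48%) lower. Sex by counts differed there, with 0 female and 3 male BLZ-titled libraries and 3 female and 1 male adult-titled ones. With sex as a covariate the Littman oil contrast called 1001 genes. With library totals in place of size factors the Littman split was 539 higher and 963 lower, with the median of all genes at -0.30. Of the 516 Jung oil genes, 324 were called the same way there and 0 the opposite way. Some tested genes passed the filter on low counts through only 1 of the 2 library sets. The filter sets these toward the same direction in each contrast, so the counts of shared calls are a description. The median log2 fold change of all tested genes was 0.02 in Jung oil and -0.08 in Littman oil.

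**Figure D1:**
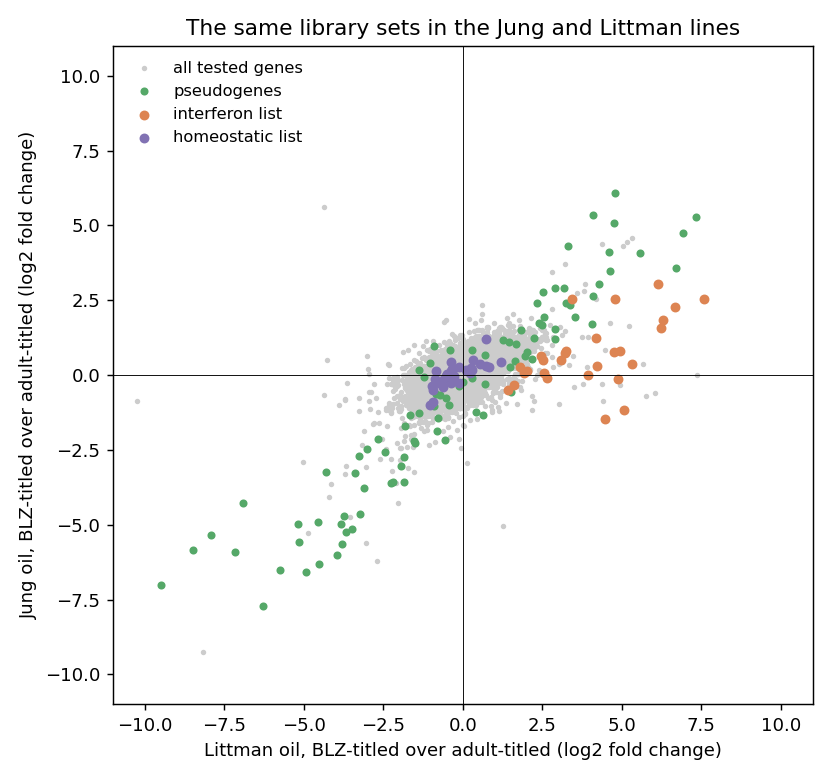
Each point is a gene, placed by its log2 fold change (BLZ-titled over adult-titled) in the Littman oil libraries on the x axis and in the Jung oil libraries on the y axis, with pseudogenes, the interferon list and the homeostatic list coloured. The interferon genes lie to the right, with a Littman median of 4.08, while their Jung values run from -1.45 to 3.05, with a median of 0.51. Of the 28 interferon genes, 16 passed the filter on low counts only through the BLZ-titled Littman libraries, which in part sets these medians. Many pseudogenes are displaced in both lines.

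Genes of the CSF1R pathway, whose receptor is the target of BLZ945, come first. Of 21 tested members, 4 were higher and 0 lower in BLZ-titled Jung libraries (median of the list -0.07), a count that was 2 in the fit of the 8 libraries alone and without a filter on low counts. For this list and those below, the share of all tested genes called was 7.94% in Jung oil and 18.2% in Littman oil. Csf1r, the receptor itself, had 6769, 6838, 6722 and 6972 CPM in BLZ-titled replicates 1 to 4, against 4241, 4636, 5007 and 4898 CPM in adult-titled replicates 1 to 4. Every BLZ-titled library was above every adult-titled one, and the log2 fold change was 0.54 ± 0.14 (SE, n = 4 each; adjusted p = 0.0135). The call was lost without adult-titled replicate 1, without a filter on low counts and in the fit of the 8 libraries alone. In tamoxifen libraries Csf1r was also higher, by a log2 fold change of 0.60 (adjusted p = 0.0041), whereas in Littman oil its log2 fold change of 0.28 did not pass the test (adjusted p = 0.209).

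Csf1, which encodes a ligand of the receptor, had 44.6, 44.2, 16.7 and 38.9 CPM in the BLZ-titled libraries, against 10.6, 9.90, 23.02 and 7.82 CPM in the adult-titled ones. The ranges overlapped, and the difference passed the test at 1.45 ± 0.44 (adjusted p = 0.032), but in 10 of 19 alternatives that tested it the call was lost. Spi1, which encodes the myeloid transcription factor PU.1, had 597, 336, 489 and 326 CPM in BLZ-titled libraries and 131, 195, 158 and 301 CPM in adult-titled libraries. The groups did not overlap, and Spi1 rose by a log2 fold change of 1.16 ± 0.28 (adjusted p = 0.00569).

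Tyrobp, the adaptor DAP12 through which TREM2 signals, had 2896, 1902, 3102 and 1299.9 CPM in BLZ-titled libraries, against 816, 977, 739.8 and 1368 CPM in adult-titled libraries. BLZ-titled replicates 1 and 3 were well above all adult-titled libraries, and BLZ-titled replicate 4 lay within their range. The log2 rise was 1.24 ± 0.22 (adjusted p = 0.0002), and in Littman oil it was 2.07 ± 0.24. Other members of the list did not pass: the transcription factor Irf8 had a log2 fold change of 0.29, the lipid-signalling enzyme Plcg2 0.35, the survival gene Mcl1 0.29 and the transcription factor Cebpa -0.55 (adjusted p = 0.0544). None of the 21 members had a called difference between the Jung and Littman contrasts.

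**Figure D2:**
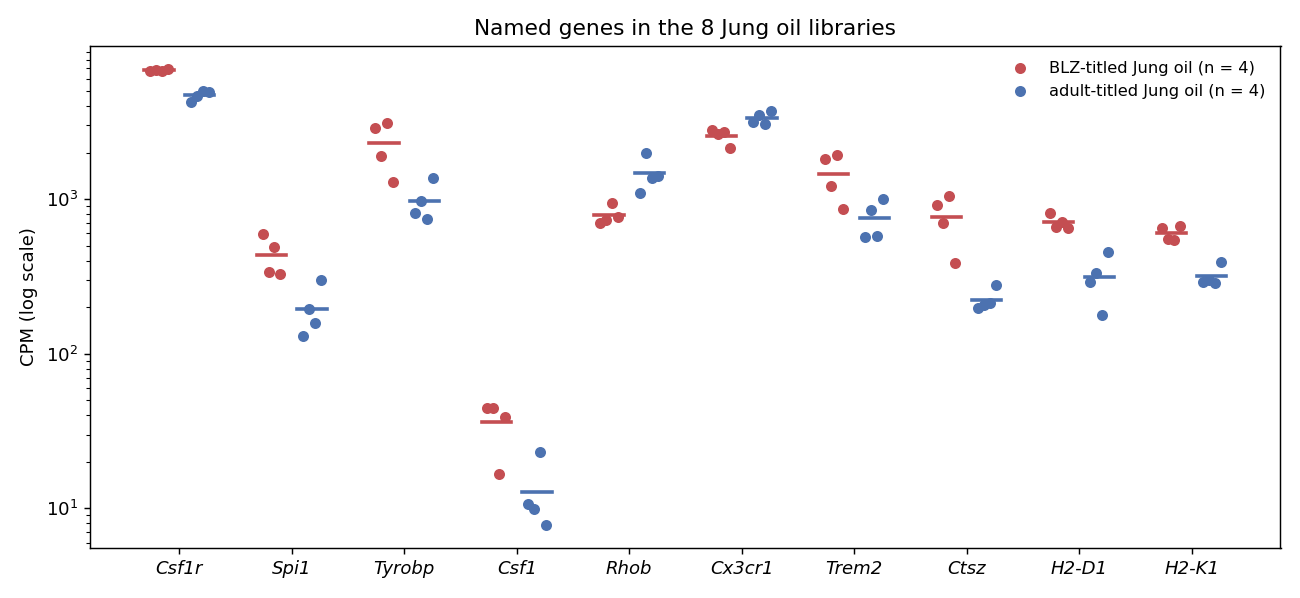
CPM on a log axis of 10 genes in the 4 BLZ-titled and the 4 adult-titled Jung oil libraries, 1 point per library, with a bar at each group mean. Csf1r and H2-D1 are higher in all BLZ-titled libraries and Rhob is lower in all, while Tyrobp and Trem2 spread widely within the BLZ-titled group.

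Of 30 homeostatic genes tested, 1 was higher and 2 were lower in BLZ-titled Jung libraries (median 0.11), against 4 higher and 8 lower in Littman oil (median -0.32). Of all genes tested, 7.94% were called in Jung oil and 18.2% in Littman oil. Rhob, a small GTPase, had 703, 734, 945 and 764 CPM in BLZ-titled libraries, against 1095, 1993, 1371 and 1415 CPM in adult-titled libraries. The groups did not overlap, and Rhob fell, with a log2 fold change of -0.90 ± 0.17 (adjusted p = 0.000329). The value was -0.57 ± 0.17 in Jung tamoxifen and -0.94 ± 0.19 in Littman oil.

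Ltc4s, leukotriene C4 synthase, was the member that rose, with 681, 491, 645 and 331 CPM in BLZ-titled libraries and 166, 257, 158 and 348 CPM in adult-titled libraries. Its log2 fold change was 1.21 ± 0.24 (adjusted p = 0.000891), although the lowest BLZ-titled library was below the highest adult-titled one. Cx3cr1, the fractalkine receptor whose locus carries the knock-in, had 2796, 2641, 2724 and 2128 CPM in BLZ-titled libraries and 3132, 3484, 3041 and 3725 CPM in adult-titled libraries. The groups did not overlap, but the log2 fold change of -0.38 ± 0.15 did not pass the test across all genes (adjusted p = 0.107, and 0.0183 by DESeq2). In Littman oil Cx3cr1 fell by 0.97 on the log2 scale (adjusted p = 1.78e-05).

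P2ry12, the ADP receptor that guides microglial processes, had 5034, 3362, 4692 and 2166 CPM in BLZ-titled libraries and 3418, 4207, 3156 and 6063 CPM in adult-titled libraries. The ranges overlapped almost wholly, with a log2 fold change of -0.14 ± 0.27 (adjusted p = 0.809). Tmem119 gave 0.27 ± 0.20 (adjusted p = 0.47). Both genes were named after their values were seen.

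Genes of disease-associated microglia, a state with raised lysosomal and lipid-handling genes, were next. Of 17 tested, 5 were higher and 0 lower in BLZ-titled Jung libraries (median 0.48), against 12 higher and 0 lower in Littman oil (median 1.10). The Jung count was 2 without BLZ-titled replicate 3, and 3 without BLZ-titled replicate 1 or without adult-titled replicate 1, 2 or 3. Trem2, a lipid-sensing receptor, had 1830.4, 1212, 1935 and 862 CPM in BLZ-titled libraries and 565, 848, 579 and 1008 CPM in adult-titled libraries. BLZ-titled replicate 4 lay within the adult-titled range, and the log2 rise was 0.96 ± 0.24 (adjusted p = 0.00847), against 1.10 ± 0.25 in Littman oil. The Trem2 call was lost without BLZ-titled replicate 3. Ctsz, the protease cathepsin Z, had 921, 703, 1045 and 385 CPM in BLZ-titled libraries, against 198, 208, 214 and 278 CPM in adult-titled libraries. All 4 BLZ-titled libraries were higher, and the log2 rise was 1.76 ± 0.30 (adjusted p = 6.91e-05).

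Cd52, a small surface glycoprotein, rose by a log2 fold change of 1.34 ± 0.29 in Jung oil and 3.13 ± 0.28 in Littman oil, and that difference passed its own test (adjusted p = 0.0181), though not without adult-titled Jung replicate 2 or 4. Fth1, ferritin heavy chain, rose by a log2 fold change of 0.88 in Jung oil (adjusted p = 0.0288), a call lost in 6 of 20 alternatives, among them the fit of the 8 libraries alone. Apoe, the lipid carrier, had 1110.5, 778, 1184 and 881 CPM in BLZ-titled libraries and 127, 412, 312 and 582 CPM in adult-titled libraries. The groups did not overlap, but the log2 fold change of 1.46 ± 0.49 missed the threshold (adjusted p = 0.0574), whereas Jung tamoxifen gave 1.95 ± 0.50 (adjusted p = 0.00801). Axl, a receptor for dying cells, had 39.1, 13.3, 16.7 and 24.3 CPM in BLZ-titled Jung libraries, 3.53, 6.60, 3.29 and 15.6 CPM in adult-titled Jung libraries, 350.5, 198 and 365 CPM in BLZ-titled Littman libraries and 6.92, 9.90, 9.69 and 3.57 CPM in adult-titled Littman libraries. Its high values were thus in the BLZ-titled Littman libraries, and the Jung log2 fold change of 1.64 did not pass (adjusted p = 0.142). The difference between the lines, -3.59, did not pass either (adjusted p = 0.096). Apoe and Axl were named after their values were seen.

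MHC class I genes, which present peptides from within the cell on the cell surface, were next. Of 18 tested, 7 were higher and 0 lower in BLZ-titled Jung libraries (median 0.74), against 12 higher and 0 lower in Littman oil (median 1.58). Without adult-titled replicate 3 the Jung count was 4. H2-D1, a class I heavy chain, had 809, 663, 706 and 648 CPM in BLZ-titled libraries and 293, 333, 178 and 457 CPM in adult-titled libraries. The groups did not overlap, and the log2 rise was 1.17 ± 0.24 (adjusted p = 0.000968). H2-K1, another heavy chain, had 653, 553, 545 and 672 CPM in BLZ-titled libraries and 293, 300.3, 286 and 395 CPM in adult-titled libraries, a log2 rise of 0.93 ± 0.18 (adjusted p = 0.000497). Class I heavy chains have near copies in the genome, so reads may be shared between them.

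The Littman log2 rises were larger, at 2.65 ± 0.25 for H2-D1 and 2.17 ± 0.19 for H2-K1. Both differences between the lines passed (adjusted p = 0.0207 for H2-D1 and 0.0092 for H2-K1), but neither did without BLZ-titled Littman replicate 2, and that of H2-D1 did not without adult-titled Jung replicate 2 or 4. B2m, the shared light chain, had 7879.5, 4932, 7150.0 and 3773 CPM in BLZ-titled Jung libraries and 3157, 3834, 2703 and 4984 CPM in adult-titled Jung libraries. BLZ-titled replicate 4 was below 2 adult-titled libraries, the log2 rise was 0.69 ± 0.22 (adjusted p = 0.0402), and the call was lost in 10 of 20 alternatives. The non-classical gene H2-T23 rose by a log2 fold change of 1.68 (adjusted p = 0.00119) and the immunoproteasome subunits Psmb9 and Psmb10 by 1.13 and 0.95 (adjusted p = 0.0184 and 0.0412). The Psmb9 call was lost in 3 and the Psmb10 call in 10 of 20 alternatives. Of 5 class II genes tested, H2-DMa, which loads peptides, was called, with a log2 rise of 1.25 (adjusted p = 0.0114), but not without BLZ-titled replicate 3.

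Among the pathway lists, interferon-induced genes had the median difference between the lines farthest from 0, at -2.85 log2 units. Of 28 tested, 2 were higher and 0 lower in BLZ-titled Jung oil libraries, and in Jung tamoxifen 6 were higher and 0 lower (median 0.82). The called shares of all genes were 7.94% in Jung oil and 10.4% in Jung tamoxifen. In Littman oil all 28 were higher, but 16 of them passed the filter on low counts only through the BLZ-titled Littman libraries, where they are high, so that their direction there and the list's medians are in part set by the filter. The difference of the Jung and Littman contrasts was called for 12 of the 28, all negative, against 39 of all 6496 genes (0.6%). The filter set those 16 genes toward a negative difference, so this count is a description. Of all 6496 genes, 288 passed only through the BLZ-titled Littman libraries. Summed over 29 genes in the tables, the list stood at 923 to 1383 CPM in BLZ-titled Jung oil libraries and at 760 to 966 CPM in adult-titled ones. In Jung tamoxifen it stood at 1263 to 1826 CPM in BLZ-titled libraries and at 717 to 995 CPM in adult-titled ones, without overlap. In BLZ-titled Littman oil libraries it stood at 7282 to 9629 CPM, against 801 to 947 CPM in adult-titled Littman oil libraries. The Jung oil groups overlapped slightly and both were far below the BLZ-titled Littman libraries. The 3 monocyte markers found moved with this list in the Littman line, summing to between 100.5 and 119 CPM in BLZ-titled oil libraries and between 7.15 and 13.8 CPM in adult-titled ones. Ms4a4c made up most of that, with 52 counts in the BLZ-titled group and 1 in the adult-titled group, while the defining marker Ccr2 had 5 counts against 11. The part of monocytes in the interferon values was not tested.

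Ifitm3, a membrane protein that blocks viral entry, had 39.1, 8.85, 27.8 and 24.3 CPM in BLZ-titled Jung libraries, 7.06, 3.30, 9.86 and 11.7 CPM in adult-titled Jung libraries, 1082, 1083 and 809 CPM in BLZ-titled Littman libraries and 10.4, 9.90, 6.46 and 25.02 CPM in adult-titled Littman libraries. The Jung oil log2 fold change of 1.56 ± 0.67 did not pass (adjusted p = 0.15), the Littman one was 6.23 ± 0.39, and their difference of -4.67 ± 0.99 passed (adjusted p = 0.0107), though not without adult-titled Jung replicate 3 or 4. In Jung tamoxifen Ifitm3 was called higher, at 1.86 ± 0.52 (adjusted p = 0.01475). Bst2, tetherin, which holds budding virions at the cell surface, had 218, 124, 228 and 185 CPM in BLZ-titled Jung libraries, 102, 82.5, 95.3 and 172 CPM in adult-titled Jung libraries, 1206, 1052 and 888 CPM in BLZ-titled Littman libraries and 156, 115, 77.5 and 100.1 CPM in adult-titled Littman libraries. Its Jung oil value was 0.74 ± 0.25 (adjusted p = 0.0643), its Littman value 3.22 ± 0.24, and the difference passed (adjusted p = 3.43e-05). In Jung tamoxifen Bst2 was called higher, at 0.89 ± 0.25 (adjusted p = 0.016).

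Both members called in Jung oil rose less there than in Littman oil, by the test of the difference (adjusted p = 0.0211 for Ifi27l2a and 2.68e-05 for Lgals3bp). For Ifi27l2a that test did not pass without adult-titled Jung replicate 1, 2 or 4. Ifi27l2a, a small interferon-induced protein, had 55.8, 22.1, 44.5 and 24.3 CPM in BLZ-titled Jung libraries and 7.06, 9.90, 0 and 11.7 CPM in adult-titled Jung libraries, a log2 rise of 2.27 ± 0.62 (adjusted p = 0.0168), while its BLZ-titled Littman libraries held 1026, 786 and 709 CPM. Lgals3bp, a secreted galectin-binding glycoprotein, rose by a log2 fold change of 0.79 ± 0.24 in Jung oil (adjusted p = 0.0319) and 3.23 ± 0.23 in Littman oil. Neither call held without BLZ-titled replicate 1 or without BLZ-titled replicate 3, and the list had between 0 and 3 calls over the alternatives.

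Of 12 inflammatory genes tested, 1 was higher and 0 lower in Jung oil, and 7 were higher in Littman oil. The called shares of all genes were 7.94% in Jung oil and 18.2% in Littman oil. Ccl12, a monocyte chemoattractant, had 195, 119, 122 and 77.9 CPM in BLZ-titled Jung libraries and 31.8, 56.1, 23.02 and 39.1 CPM in adult-titled Jung libraries. All BLZ-titled libraries were higher, the log2 rise was 1.75 ± 0.34 (adjusted p = 0.000445), and the Littman log2 rise was 4.64 ± 0.29, with a called difference of -2.89 (adjusted p = 0.000406). Cxcl10, an interferon-induced chemokine named after its values were seen, had 0 counts in all 8 Jung oil libraries. That count allows up to 3.79 CPM in the BLZ-titled group and 2.62 CPM in the adult-titled group, each as 3 counts over the group and for counting error only. BLZ-titled Littman libraries held 371, 297 and 428 CPM of Cxcl10, against 0, 0, 0 and 7.15 CPM in adult-titled Littman libraries.

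**Figure D3:**
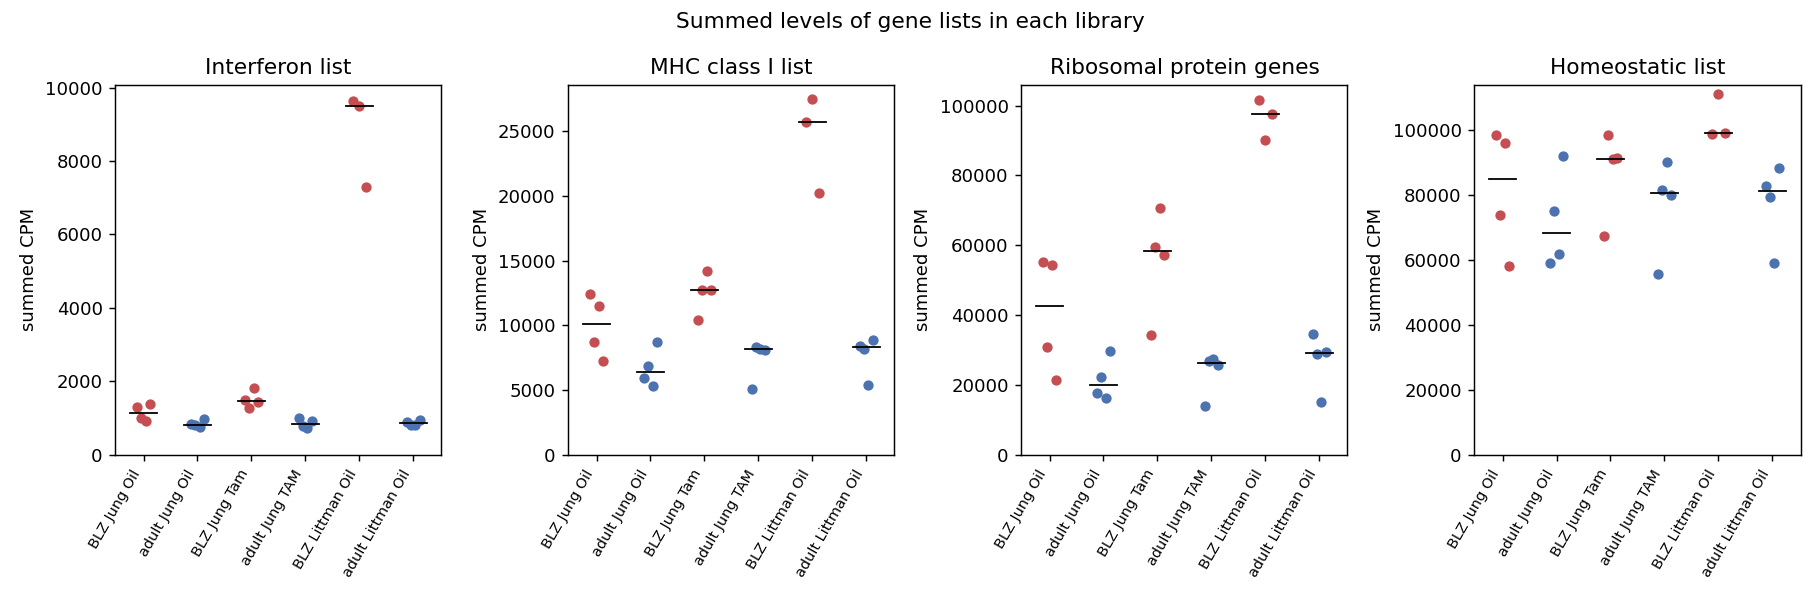
Summed CPM of 4 gene lists on linear axes from 0 in every library of 6 groups, 1 point per library, with a bar at each group median and BLZ-titled groups in red. The interferon list stands at 7282 to 9629 CPM in BLZ-titled Littman oil and at no more than 1383 CPM in the Jung oil libraries, while ribosomal protein genes vary within BLZ-titled Jung oil.

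The promoters of 4 of these genes are shown because Ifitm3 and Bst2, both interferon-induced, had called differences between the lines, and B2m and H2-D1, both class I, were called higher in both lines. H2-D1 also had a called difference between the lines. Each sequence runs from 250 bases before to 50 bases after the gene start, on the gene's strand, from RefSeq (build GRCm38.p6). Capitals mark GAAANNGAAA on either strand, the core of the element bound by interferon-activated factors.
Ifitm3, chr7:141010695-141010994, minus strand: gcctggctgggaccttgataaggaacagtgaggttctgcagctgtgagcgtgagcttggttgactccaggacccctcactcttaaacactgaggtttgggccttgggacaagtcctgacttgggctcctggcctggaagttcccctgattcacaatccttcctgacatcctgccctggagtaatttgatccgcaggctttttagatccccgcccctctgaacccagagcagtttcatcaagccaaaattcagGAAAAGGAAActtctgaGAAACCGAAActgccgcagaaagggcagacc
Bst2, chr8:71537423-71537722, minus strand: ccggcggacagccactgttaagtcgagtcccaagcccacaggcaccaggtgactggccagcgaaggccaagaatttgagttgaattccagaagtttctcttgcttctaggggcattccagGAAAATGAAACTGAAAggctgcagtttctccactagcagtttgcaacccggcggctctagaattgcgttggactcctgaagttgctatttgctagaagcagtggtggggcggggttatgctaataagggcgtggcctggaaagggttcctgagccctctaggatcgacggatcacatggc
B2m, chr2:122147437-122147736, plus strand: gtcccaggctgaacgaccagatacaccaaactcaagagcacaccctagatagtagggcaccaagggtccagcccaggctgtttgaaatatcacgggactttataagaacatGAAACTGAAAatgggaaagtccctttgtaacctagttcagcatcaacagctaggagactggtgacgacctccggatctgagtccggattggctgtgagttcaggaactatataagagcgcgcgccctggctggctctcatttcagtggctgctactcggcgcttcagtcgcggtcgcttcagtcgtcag
H2-D1, chr17:35262844-35263143, plus strand: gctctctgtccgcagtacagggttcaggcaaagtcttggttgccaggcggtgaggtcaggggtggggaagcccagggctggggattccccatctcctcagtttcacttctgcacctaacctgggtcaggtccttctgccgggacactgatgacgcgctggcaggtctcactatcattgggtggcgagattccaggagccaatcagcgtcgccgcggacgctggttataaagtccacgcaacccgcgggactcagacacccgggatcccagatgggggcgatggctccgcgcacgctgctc
The letters occur at 2 places in the Ifitm3 window, both after the gene start, and at 2 overlapping places upstream in the Bst2 window. B2m has 1 match upstream, and the H2-D1 window has none. Over all 32851 windows in the table, 3.44% hold the letters. They were found for 13 of 22 interferon-list genes with a window, 5 of 19 MHC class I genes, 1 of 24 homeostatic genes, 1 of 20 disease-associated genes and 0 of 15 CSF1R pathway genes. A gene with several windows counted if any of them held the letters, whereas the 3.44% counts single windows. A match describes the letters in a window and does not show binding. Only these exact letters were searched, so a window without them, such as that of H2-D1, may still hold a variant of the element.

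Ribosomal protein genes, components of the translation machinery, held the most called members of any list. Of 77 tested, 35 were higher and 0 lower in BLZ-titled Jung oil libraries (median 0.92), against 72 higher and 0 lower in Littman oil (median 1.83). None had a called difference between the lines. Rps14 had 1729.9, 1106, 1484 and 920.2 CPM in BLZ-titled libraries and 403, 478, 352 and 618 CPM in adult-titled libraries, a log2 rise of 1.501 ± 0.21 (adjusted p = 2.68e-06). Their share of all counts was 5.22, 3.11, 5.14 and 2.29% in BLZ-titled replicates 1 to 4, and 1.66, 2.21, 1.69 and 2.77% in adult-titled replicates 1 to 4. BLZ-titled replicates 1 and 3 had the high shares and replicate 4 was within the adult-titled range. The same 2 replicates had the highest BLZ-titled levels of Tyrobp, Trem2, Fth1, Cd52, B2m, Spi1, Ctsz, Ltc4s, Ifi27l2a and the uncalled P2ry12, but not of Csf1r or H2-K1. Adult-titled replicate 4, with the highest adult-titled share, had the highest adult-titled levels of Tyrobp, Trem2, Spi1, B2m and P2ry12. Whether the ribosomal share had a part in the results for these genes was not tested. The number of called ribosomal genes fell to 17 without BLZ-titled replicate 1.

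Nuclear genes of the respiratory chain followed with 12 of 74 higher and 1 lower (median 0.43). Cox7a2l, a factor in the assembly of respiratory supercomplexes, had 479.9, 345, 406 and 321 CPM in BLZ-titled libraries and 120.0, 191, 168 and 238 CPM in adult-titled libraries, a log2 rise of 1.11 ± 0.23 (adjusted p = 0.00111). Atp5g1, a subunit of the ATP synthase ring, fell to 5.58, 17.7, 5.56 and 9.74 CPM in BLZ-titled libraries, against 38.8, 42.9, 39.5 and 62.5 CPM in adult-titled libraries (log2 fold change -2.12 ± 0.47, adjusted p = 0.00249). This list had between 3 and 20 calls over the alternatives, the fewest without BLZ-titled replicate 1.

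Among mRNAs of the mitochondrial genome, 7 of 11 were higher and 1 lower, the same numbers as in Littman oil, and none had a called difference. Without BLZ-titled replicate 3, 4 were higher and 1 lower. Summed over 13 such mRNAs, the level was 19017 to 33265 CPM in BLZ-titled Jung oil libraries and 18228 to 27773 CPM in adult-titled ones. The summed levels thus overlapped, unlike those of single members below. mt-Atp6, an ATP synthase subunit, had 469, 394, 606 and 175 CPM in BLZ-titled libraries and 14.1, 19.8, 16.4 and 27.4 CPM in adult-titled libraries. The ranges were far apart, with a log2 fold change of 4.37 ± 0.40 in Jung oil (adjusted p = 2.5e-10), 5.09 ± 0.40 in Jung tamoxifen and 4.39 ± 0.37 in Littman oil. mt-Co3, a subunit of cytochrome oxidase, gave 4.57 ± 0.59 in Jung oil and 5.32 ± 0.54 in Littman oil. Of 9 cholesterol and lipid genes tested, Npc2, a lysosomal cholesterol carrier, was called, with a log2 rise of 0.66 (adjusted p = 0.0218) that lost its call in 6 of 20 alternatives, and of 4 cell cycle genes tested 0 were called.

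**Figure D4:**
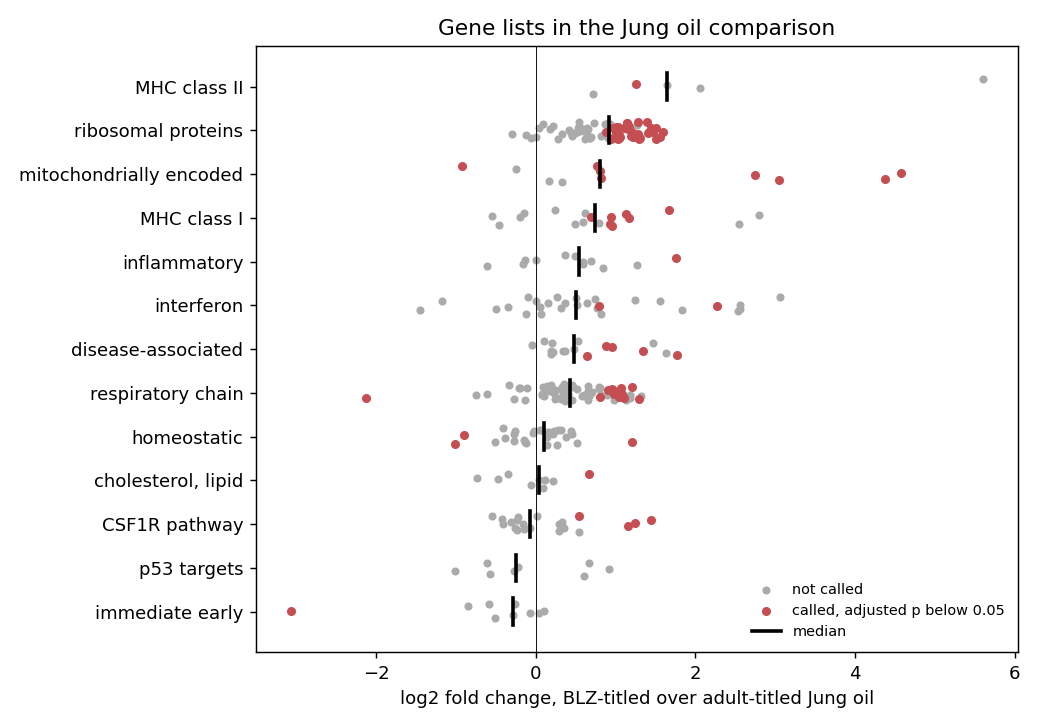
Log2 fold changes (BLZ-titled over adult-titled Jung oil) of the tested members of 13 gene lists, 1 point per gene, with red for called genes and a black bar at each list's median. Ribosomal protein genes, with a median of 0.92, are nearly all on the positive side, and the CSF1R pathway list is centred at -0.07 with 4 called members to the right.

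Pseudogenes are copies of genes that in most cases make no protein. Of the 832 pseudogenes found in each table, 97 passed the filter on low counts. Of these, 31 reached its minimum in both library sets, 31 only in the BLZ-titled set, 34 only in the adult-titled set and 1 only with libraries of both sets. A gene that passed only through the set where it is high had to differ, so the called shares below are a description. Of the 97 tested, 22 were higher and 38 lower in BLZ-titled Jung oil libraries, so that 61.9% were called, against 7.04% of 6137 protein-coding genes. In 52 of the 97 the change was at least 4-fold. Of the protein-coding genes tested, 4919 reached the minimum in both sets. The Littman contrast of the same library sets called 36 pseudogenes higher and 34 lower, and 0 pseudogenes had a called difference between the lines. Rpl17-ps5, a ribosomal protein pseudogene, had 89.3, 48.7, 72.3 and 9.74 CPM in BLZ-titled Jung libraries and 0, 0, 0 and 3.91 CPM in adult-titled Jung libraries, that is 42 counts against 1. Gm7536, a predicted pseudogene, had 0, 0, 0 and 4.87 CPM in BLZ-titled libraries and 162, 238, 155 and 379 CPM in adult-titled libraries, that is 1 count against 262. The ratio of scaled counts was 180.7 in favour of the adult-titled group, with an exact 95% interval of 32.2 to 7164. Both were named after their values were seen. Pseudogenes share sequence with their parent genes, and no source used here tells how a read that matches several genes was assigned. With protein-coding genes alone, an alternative added after the data were seen, 440 genes were called, 234 higher and 206 lower.

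Several of the largest changes in Jung oil were also called in Littman oil. Lars2, a mitochondrial leucyl-tRNA synthetase, had 5.58, 22.1, 16.7 and 24.3 CPM in BLZ-titled Jung libraries and 727, 135, 181 and 184 CPM in adult-titled Jung libraries, with adult-titled replicate 1 far above the others. Its log2 fold change was -4.08 ± 0.46 in Jung oil (adjusted p = 2.9e-08) and -4.20 ± 0.57 in Littman oil. Jund, an AP-1 transcription factor, had 22.3, 22.1, 22.2 and 9.74 CPM in BLZ-titled libraries and 138, 185, 187 and 141 CPM in adult-titled libraries, with -3.07 ± 0.33 in Jung oil (adjusted p = 1.08e-08) and -3.04 ± 0.35 in Littman oil. It was the 1 called gene among 9 immediate early genes tested. Wdr89, a WD-repeat protein, had 798, 279, 778 and 204 CPM in BLZ-titled libraries and 63.6, 6.60, 9.86 and 11.7 CPM in adult-titled libraries, with 4.46 ± 0.61 in Jung oil and 5.16 ± 0.56 in Littman oil. None of these 3 genes had a called difference between the lines.

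Fam221b had 0, 4.42, 5.56 and 0 CPM in BLZ-titled libraries, against 56.5, 89.1, 72.3 and 109 CPM in adult-titled libraries, a ratio of 32.1 in favour of the adult-titled group (95% interval 8.63 to 268.7). Rps27rt, a retrocopy of a ribosomal protein gene, had 1 count in the BLZ-titled group and 98 in the adult-titled group, a ratio of 67.6 in favour of the adult-titled group (11.8 to 2697). These intervals cover counting error only. Hmga1b, a copy of a chromatin protein gene, had 0 counts in the BLZ-titled group and 14.1, 46.2, 52.6 and 39.1 CPM in adult-titled libraries, at least 10.1-fold lower with 3 counts assumed over the group.

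Nrxn3, a neuronal adhesion protein, had 39.1, 4.42, 27.8 and 29.2 CPM in BLZ-titled Jung libraries and 7.06, 0, 0 and 0 CPM in adult-titled Jung libraries, 19 counts against 2, and was not called without BLZ-titled replicate 1. Tmem150a, a transmembrane protein, had 11.2, 39.8, 55.6 and 43.8 CPM in BLZ-titled libraries and 3.53, 6.60, 3.29 and 15.6 CPM in adult-titled libraries, a log2 rise of 2.35 ± 0.65 (adjusted p = 0.0188) that was lost in 3 of 18 alternatives. In Littman oil Tmem150a gave 0.59 ± 0.78 (adjusted p = 0.654).

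The genes that changed at least 2-fold in Littman oil, where titles and labels match, were then read in the Jung libraries. Of 564 that were higher there, 178 (31.6%) were called higher and 0 lower in Jung oil, against 4.36% of all genes called higher. Their median log2 fold change was 0.76 in Jung oil and 1.59 in Littman oil. Of 320 that were lower there, 91 (28.4%) were called lower and 0 higher in Jung oil, against 3.59% of all genes called lower, with medians of -0.68 and -1.59. Among protein-coding genes the called shares were 29.3% of 518 and 20% of 250. Both contrasts compare the same 2 library sets, so an effect of library set would appear in both. Of all tested genes, 651 reached the minimum of the low-count filter only in the BLZ-titled set and 561 only in the adult-titled set. The filter sets such genes toward the same direction in both lines, so the called shares here are a description.

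The difference of the 2 contrasts, Jung minus Littman, takes out any effect of library set that is additive on the log scale and equal in both lines. It called 39 genes (0.6%), 10 positive (0.154%) and 29 negative (0.446%). With library totals in place of size factors it called 33 positive and 22 negative, with the median of all genes at 0.29, and without BLZ-titled Littman replicate 2 it called 22 in all. With sex, which is unevenly split between the Littman oil groups, as a covariate it called 37. Of the 6496 genes tested, 288 passed the filter on low counts only through the BLZ-titled Littman libraries, which sets them toward a negative difference. Fscn1, an actin-bundling protein, was named after its values were seen. It had 463, 358, 423 and 438 CPM in BLZ-titled Jung libraries, 346, 439, 424 and 465 CPM in adult-titled Jung libraries, 144, 146 and 111 CPM in BLZ-titled Littman libraries and 419, 462, 559 and 554 CPM in adult-titled Littman libraries. The low values were those of the BLZ-titled Littman libraries, and the difference was 1.90 ± 0.31 (adjusted p = 0.000406).

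Csmd3, a large membrane protein, had 201, 203, 145 and 243 CPM in BLZ-titled Jung libraries, 378, 379, 319 and 289 CPM in adult-titled Jung libraries, 41.2, 10.4 and 31.7 CPM in BLZ-titled Littman libraries and 232, 244, 362 and 239.5 CPM in adult-titled Littman libraries. It was lower in every BLZ-titled library of both lines than in any adult-titled library of its line, but the Jung log2 fold change of -0.78 ± 0.27 did not pass (adjusted p = 0.0634) and the difference of 2.47 ± 0.51 did (adjusted p = 0.0092), except without BLZ-titled Littman replicate 2. Mlph, an adaptor for organelle transport, and Klhdc8b and Ccdc85c had positive differences of 2.32, 2.57 and 2.73 (adjusted p = 0.0324, 0.0195 and 0.0474), and none of the 3 was called in Jung oil. These differences were lost in 13, 4 and 16 of 26 alternatives for Mlph, Klhdc8b and Ccdc85c in turn.

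Cdkn1a, the p53 target that encodes p21, was named after its values were seen. It had 22.3, 61.9, 27.8 and 29.2 CPM in BLZ-titled Jung libraries and 49.4, 69.3, 39.5 and 66.5 CPM in adult-titled Jung libraries, with a log2 fold change of -0.61 ± 0.37 (adjusted p = 0.338). Of 8 p53 targets tested, 0 were called in Jung oil and 3 were higher in Littman oil. By DESeq2 the difference of contrasts called 60 genes, and without a filter on low counts 78.

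Within a library set, the 2 lines can be compared with no change of set, though line and, in set N126, Rosa26YFP then differ. In set N160 the adult-titled Jung oil libraries, labelled BLZ945+Oil, were set against the adult-titled Littman oil libraries, labelled Oil. The edgeR test made no call at the adjusted threshold, that is 0 genes (0%). Before adjustment 341 of the 6496 genes tested had p below 0.05, a cutoff that a share of about 0.05 of genes passes where nothing differs. On simulated counts for the Jung oil contrast the test recovered 26.9% of 2-fold changes, so these counts do not show that the 2 groups are alike. By DESeq2 the count of calls was 2. It was 5 with no low-count filter, and 1 without adult-titled Jung replicate 4. Cx3cr1 had a log2 fold change of -0.21 ± 0.15, Csf1r -0.27 ± 0.14, H2-D1 -0.06 ± 0.24 and Ifitm3 -0.66 ± 0.70. The interferon list had a median of -0.01 and the disease-associated list -0.24.

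In set N126 the BLZ-titled Jung oil libraries, labelled Oil, were set against the BLZ-titled Littman oil libraries, labelled BLZ945+Oil. This called 431 genes (6.63%), 122 higher (1.88%) and 309 lower (4.76%) in the Jung line, and with library totals in place of size factors 395 higher and 226 lower, with the median of all genes at 0.31. Of 28 interferon genes 27 were lower in the Jung libraries (median -3.66), as were 68 of 77 ribosomal protein genes, 9 of 18 MHC class I genes and 9 of 17 disease-associated genes. Of the 28, 16 passed the filter on low counts only through the BLZ-titled Littman libraries, as did 2 MHC class I and 2 disease-associated genes. The direction of those genes here, and the interferon median, are thus in part set by the filter. Axl had a log2 fold change of -3.71 ± 0.41 and H2-K1 one of -1.53 ± 0.18. Csf1r, with a log2 fold change of -0.02 ± 0.15, did not pass (adjusted p = 0.974). The count was 247 without BLZ-titled Jung replicate 4, 279 without BLZ-titled Littman replicate 1 and 283 without BLZ-titled Jung replicate 2.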

How the data were processed

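The authors deposited raw counts as whole numbers. Per the labels, libraries carry molecular identifiers of 10 nt and inserts of 81 nt, and 15 of 30 uL of lysate was used. Per the submitters' processing notes the tools were HISAT2, featureCounts, Trim Galore and UMI-tools, with the build GRCm38. The sources used here give no versions and no strandedness. The 3 tables (18397 genes BLZ-titled, 17838 adult Jung, 18557 adult Littman) were joined on gene ID, leaving 14918 genes in all. Of the 2 Jung tables, 2890 genes were only in the BLZ-titled one and 2331 only in the adult Jung one.

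The 30 adult libraries of both sets (8 groups) were fitted together with edgeR 4.0.16 in R 4.3.3: TMM, filterByExpr, quasi-likelihood test, Benjamini-Hochberg adjustment over all 6496 tested genes. Alternatives used DESeq2 1.42.0 among others. On simulated counts for the Jung oil contrast (6252 genes in the fit), the test recovered 87.9% of 4-fold, 26.9% of 2-fold and 4.48% of 1.5-fold changes, with 2 false calls.

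Named genes were Csf1r, Cx3cr1, CSF1R pathway members at 20 CPM or more, the 8 largest called changes each way (at 20 CPM or more, no predicted models), up to 4 called members per list and 4 of the difference each way. The text gives a selection. Genes and lists were chosen with earlier results of these data known. Dixon's test with a critical value of 0.829 for 4 libraries marked single libraries far from the rest. No 2 libraries of a group were identical. Some named genes are not reported here.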

Additional observations from a re-analysis of the deposited data

Results flagged for a closer look

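Of 144 groups of 4 libraries examined for the named genes, 8 had 1 library far from the rest, and chance gives about 1 in 20. In BLZ-titled Jung oil, replicate 1 was low for Inpp5d, a phosphatase that restrains CSF1R signalling, at 508 CPM, and replicate 4 was low for Jund at 9.74 CPM. In adult-titled Jung oil, replicate 1 was high for Lars2 at 727 CPM and for Wdr89 at 63.6 CPM, and replicate 3 was high for Csf2rb, a shared cytokine receptor chain, at 161 CPM. Replicate 4 was high for H2-DMa at 199 CPM and H2-K1 at 395 CPM, and low for Mef2a, a microglial transcription factor, at 723 CPM. Without adult-titled replicate 1, 314 genes were called in place of 516.

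In 16 named genes the Jung and Littman oil contrasts differed by the test of the difference. The difference was negative for 11: -6.65 for the monocyte marker Ms4a4c, -6.44 for Ifit3b, -5.00 for Ifit3, -4.67 for Ifitm3, -4.42 for Ifi27l2a, -2.89 for Ccl12, -2.48 for Bst2, -2.44 for Lgals3bp, -1.79 for Cd52, -1.48 for H2-D1 and -1.24 for H2-K1. It was positive for 5: 1.90 for Fscn1, 2.32 for Mlph, 2.47 for Csmd3, 2.57 for Klhdc8b and 2.73 for Ccdc85c. Ms4a4c and Ifit3b had 3 or fewer counts in at least 1 of the groups, so their fitted values depend on the prior count. A gene that passed the filter on low counts only through the BLZ-titled Littman libraries was set toward a negative difference. The call of Ifit3b was lost in 15 of 26 alternatives and that of Ifit3 in 2.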

How the results depend on the processing

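The numbers of called genes kept within 1.5 times of the main value under most alternatives for the Jung oil, Jung tamoxifen, Littman oil, difference and N126 contrasts. Apart from fits that left out 1 library, the exceptions were 256 for Jung oil in the 8 libraries alone, and 60 by DESeq2 and 78 with no low-count filter for the difference. Within N160, where the main count was 0, they were 1 with the 15 oil libraries alone, 2 by DESeq2 and 5 with no low-count filter. The cause was not tested. Leaving out 1 library at a time gave 298 to 632 genes for Jung oil, 433 to 741 for Jung tamoxifen (fewest without BLZ-titled replicate 3), 833 to 1127 for Littman oil, 22 to 56 for the difference (fewest without BLZ-titled Littman replicate 2), 247 to 536 within N126 and 0 to 1 within N160. More than 1.5 times from the main value were 298, 314 and 319 for Jung oil and 433 for Jung tamoxifen. So were 22 for the difference and 247, 279 and 283 within N126. Library totals in place of size factors changed the split to 539 higher and 963 lower for Littman oil, 395 and 226 within N126 and 33 and 22 for the difference, with all-gene medians of -0.30, 0.31 and 0.29. For Jung oil it gave 310 and 206.

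Replicate numbers did not pair the Jung oil libraries: deviations of same-numbered libraries from their group means correlated at -0.19, -0.06, -0.24 and -0.39. The replicate block gave 464 genes for Jung oil, 629 for Jung tamoxifen, 1167 for Littman oil, 38 for the difference, 434 within N126 and 0 within N160. Of 49 called named genes, 33 were called in every one of 20 settings that tested them and 16 lost the call in at least 1. Of the uncalled ones 6 gained it, and none reversed. Changes under 2-fold are seldom detectable at this depth.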
